A study of Saccharomyces cerevisiae with 13 samples.

Results

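A dominant A-site position is a codon of a gene at which an unusually large part of that gene's ribosome footprints was counted. Such positions were taken from a single library of transcripts bound by 2 ribosomes, prepared as a control for disome-seq and called the 2-ribosome library here. A position was kept when it lay at least 150 and under 3000 nt after the start codon, in a gene with 100 or more footprints, and held 20 or more footprints and at least 10% of all footprints of the gene. Of the 75954 positions listed in the library, 374 met these limits, in 238 genes. Only 483 of the 4886 listed genes had 100 or more footprints, so 49.3% of the genes that could be examined had a dominant position. The footprint counts themselves chose the positions, and their sizes are given as a description without a test.

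The 2-ribosome library is labelled as strain BY4742 (MATα his3Δ1 leu2Δ0 lys2Δ0 uraΔ0) in the rich medium YPD (yeast extract, peptone and dextrose) at 30 °C. Transcripts carrying 2 ribosomes were collected, the RNA outside the ribosomes was digested with RNase I, and protected fragments were sequenced, once and without a replicate. Only footprints of 28 to 29 nt are in the counts used here. The genes found this way were followed in other libraries of the study, namely disome-seq (footprints of collided ribosome pairs), monosome-seq (footprints of single ribosomes) and mRNA-seq (fragmented mRNA) of BY4742 in YPD, and disome-seq and monosome-seq of strain S288C starved of histidine, grown at 30 °C in synthetic complete medium lacking it and treated with 100 mM 3-AT (3-amino-1,2,4-triazole, an inhibitor of histidine synthesis). Each of these has 2 biological replicates. All lysis buffers held the elongation inhibitor cycloheximide. Strain, medium and 3-AT change together in the labels and cannot be told apart.

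An elongating ribosome holds 3 tRNA sites. The next codon is decoded in the A-site, the P-site carries the growing peptide and the E-site releases the used tRNA. Where a ribosome dwells on a codon, the same protected fragment is recovered again and again, so a pile of footprints at a codon is the usual sign of slow decoding, slow peptide bond formation or a ribosome held at a stop codon. Ligation and cutting of short RNA also favour certain ends, which makes piles as well. Proline is a poor partner in peptide bond formation, and the elongation factor eIF5A helps ribosomes across stretches of it.

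The labels were checked before any result. The 2-ribosome library labelled BY4742 had 62 footprints on LYS2, which this genotype lacks, and LYS2 had 0 reads in each of the 10 other libraries used. It had 0 on LEU2 and on URA3 and 49 on HIS3, against 0, 35 and 41 in replicate 1 of monosome-seq of the rich medium and 0, 21 and 40 in replicate 2. The 5 genes specific to MATa cells (MFA1, MFA2, STE2, AGA2 and BAR1) had 195 footprints in the 2-ribosome library, against 1 and 0 in the monosome-seq libraries of the rich medium. The genes specific to MATα cells (STE3 and both α-factor genes) had 1 footprint, against 2391 and 1860. MET17, a gene of methionine synthesis looked up after these values were seen, had 0 footprints against 514 and 341. In the 4 libraries labelled S288C, a strain whose standard form carries intact LYS2, LEU2 and URA3, LYS2 and LEU2 had 0 reads and URA3 at most 3. The counts of the 2-ribosome library thus go against its labelled genotype. Those of LYS2 and LEU2 in the 4 libraries labelled S288C go against that label too. Reads on URA3 in monosome-seq and mRNA-seq of the rich medium (138 and 181 in mRNA-seq) go against the uraΔ0 of their BY4742 label. Comparisons of the 2-ribosome library with the other libraries join strains that differ. It held 401686 footprints. Disome-seq libraries were the smallest of the others, with 18790 to 47391 footprints each, against 230583 to 800994 for monosome-seq, and mRNA-seq had 2256785 and 2836320 reads.

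The windows below are the 28 bases covered by a footprint at the positions the results turn on, read from the RefSeq genome (build R64) 5′ to 3′ on the coding strand. Capitals mark the P-site codon followed by the A-site codon, and the number after the gene is the distance of the A-site from the start codon in nt. The first set holds 5 of the windows with a proline codon (CCA or CCT) in the P-site among the largest shares or the redox genes. They lie at chrXIII:267507-267534 (+), chrIII:60933-60960 (−), chrX:525144-525171 (−), chrV:85886-85913 (+) and chrIV:1471188-1471215 (+).
YPT7 348: aacgtaaactcaCCAGAAacatttccat
GRX1 228: caaagaaccgtgCCAAACatctatatta
ANB1 225: gaagatttgtctCCATCCactcacaact
HYP2 225: gaagatttgtctCCATCTactcacaaca
GRX2 186: aagacatactgcCCTTACtgtaaagcta
The second set holds large shares without proline in the P-site, at chrXI:334693-334720 (−), chrIV:239132-239159 (−), chrIV:322893-322920 (+) and chrII:406711-406738 (−).
TMA19 210: aacgttgtccacTCTTTCcgtctacaac
HNT1 351: gaccacgtccacTTCCATttgattccta
RPL31A 261: gaagacgccaagAACCCAttgttctcct
UBC4 351: gacgctaatcctGACGATcctttagtac
The third set holds the positions of 5 genes with the most footprints, at chrXII:369777-369804 (−), chrI:72074-72101 (+), chrXI:163986-164013 (−), chrVII:882961-882988 (−) and chrXI:326839-326866 (−).
CCW12 309: acctctgctgctCCAACTcactctgtca
CDC19 303: aacgatgttgacTACCCAatcccaccaa
GPM1 387: gacgcttcttctCCATTCtctcaaaagg
TDH3 837: accgaagacgctGTTGTCtcctctgact
FBA1 636: aaggctttgcacCCAATCtctccaaact

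The dominant positions held 53626 footprints, which is 13.4% of the library and 25.8% of the footprints of their own genes. A position held between 20 and 4517 footprints (median 50.5) and between 10% and 59.8% of its gene (median 15.1%). Only 101 positions held 20% or more, 29 held 30% or more, 8 held 40% or more and 2 held over 50%. Of the genes, 133 had a single dominant position, 77 had 2, 25 had 3 and 3 had 4.

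The position with the most footprints lay in CCW12, which encodes an abundant mannoprotein of the cell wall. Position 309 held 4517 of the 20933 footprints of the gene, or 21.6% (exact 95% interval 21.0 to 22.1%), and position 306 held another 2845. Intervals here cover counting error only, since reads of 1 amplified fragment are not separate molecules. Most of the other positions with many footprints lay in enzymes of glycolysis. CDC19, the pyruvate kinase of the last step, had 3575 footprints at position 303 and 2889 at 306, of 17420 in the gene. GPM1, the phosphoglycerate mutase, had 2646 at position 387 and 2030 at 384, of 15372. These 3 genes each carried 2 dominant positions side by side. TDH3, the main glyceraldehyde-3-phosphate dehydrogenase, had 2573 footprints at position 837 (13.5% of the gene), FBA1, the aldolase, had 2230 at 636 (12.9%), PGK1, the phosphoglycerate kinase, had 1144 at 876 (13.8%) and ENO2, an enolase, had 864 at 222 (13.5%). Of these positions, only CCW12 309 and CDC19 303 held over 20% of their gene.

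The largest share was found in YPT7, the Rab GTPase of vacuole fusion, where position 348 held 76 of 127 footprints, or 59.8% (50.8 to 68.4%). TMA19, the yeast form of the translationally controlled tumour protein, followed with 715 of 1359 at position 210 (52.6%, 49.9 to 55.3%). GRX1, a glutaredoxin, had 46.3% at 228 (37.2 to 55.6%, 56 of 121). The intervals of YPT7 and TMA19 overlap, as do those of TMA19 and GRX1, so their order is not set by these counts. ANB1 and HYP2, the 2 genes of eIF5A, had 43.4% and 43.0% at position 225. HNT1 (an adenosine monophosphoramidase) had 42.3% at 351, RPL31A 40.8% at 261, the ubiquitin-conjugating enzyme UBC4 40.8% at 351, the Arp2/3 subunit ARC15 39.6% at 186 and the bridging factor MBF1 39.2% at 357. At the limit of 10%, RPN12 603 (23 of 230 footprints), RPL33A 306 (96 of 960) and UGP1 1314 (36 of 357, 10.1%) were just inside, while RPL21B 459 (9.97%), MET6 405 (9.97%) and ADE13 1398 (9.95%) were just outside.

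**Figure D1:**
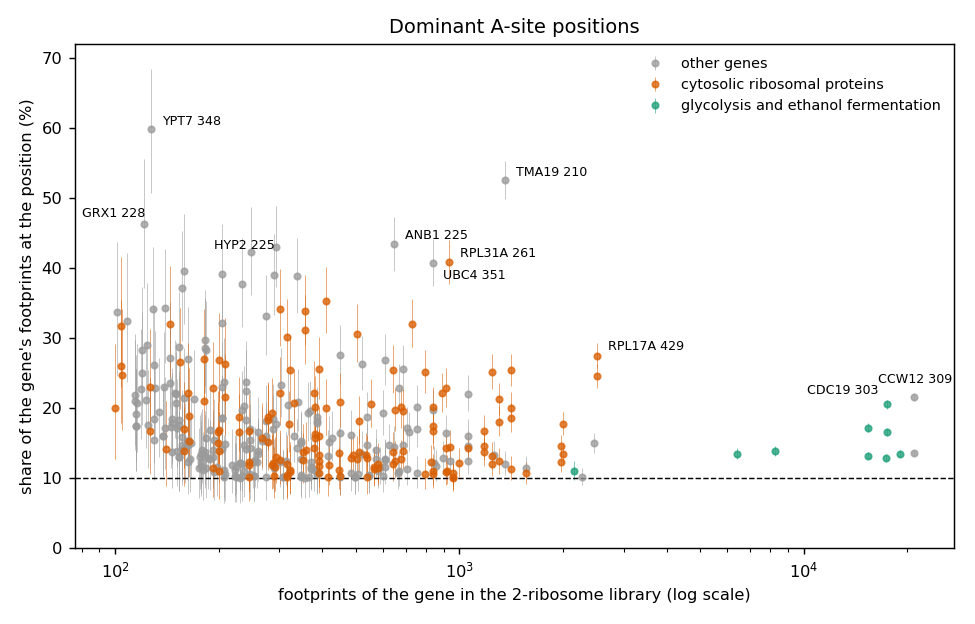
Each point is a dominant A-site position, with the footprints of its gene in the 2-ribosome library on a log axis and the share of those footprints at the position in percent. Bars are exact 95% binomial intervals and the dashed line is the limit of 10%. YPT7 348 stands highest with 59.8% of 127 footprints, while CCW12 309 reaches 21.6% of 20933.

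The genes were grouped by lists of function. Among the genes with 100 or more footprints, cytosolic ribosomal proteins had a dominant position in 83 of 115 genes (72.2%), with 34 of 46 in the small subunit and 49 of 69 in the large subunit. They made up 34.9% of the genes and 38.0% of the dominant positions. The list with the next most genes with a dominant position was amino acid biosynthesis, with 15 of 34, while 83 of 202 genes in no list (41.1%) had one. Genes with a dominant position had shorter coding sequences than those without, with a median of 600 nt against 1182 nt, and more footprints, with a median of 301.5 against 186, which the minimum of 20 footprints favours. A short gene has fewer codons to share its footprints, so the limit of 10% is reached more easily there, and ribosomal protein genes with 100 or more footprints had a median of 438 nt. Among these genes, RPL17A held 688 footprints at position 429 (27.5%) and 616 at 426, RPL31A held 381 at 261, RPS9B held 358 at 480 (25.4%) and RPL20A held 354 at 210 (17.7%).

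Translation factors had a dominant position in 9 of 18 genes. After ANB1, these were led by TEF4, a subunit of the factor that recharges elongation factor 1A, with 234 footprints at position 333 (22.1%), and by STM1, a ribosome-binding protein, with 179 at 234 (11.4%). CDC33, the cap-binding protein eIF4E, had 3 dominant positions, of which 189 held 27.6%. The release factor SUP45 had 2, with 25 footprints at 222 and 20 at 213. Among chaperones, 7 of 21 genes had one. The cyclophilin CPR1 had 170 footprints at 327 and 155 at 150, EGD1 of the nascent-polypeptide-associated complex had 116 at 258, and FPR1, a prolyl isomerase, had 4 positions in a row from 150 to 159 with 70, 69, 72 and 41 footprints. All 5 histone genes with 100 or more footprints had dominant positions, 11 in all, and none of these had proline in the P-site. HTB1 and HTB2, the copies of histone H2B, shared positions 375 and 381, and HHT1 and HHT2, the copies of histone H3, shared 255 and 360.

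Redox genes had a dominant position in 6 of 10 genes, and 4 of their 13 positions had proline in the P-site. AHP1, a peroxiredoxin, had 176 footprints at position 180 (25.6%), with serine, proline and threonine codons in the E-, P- and A-site. TRX2, a thioredoxin, had 163 at 222 (26.9%) with methionine, proline and threonine, and 3 further positions of 70 to 77 footprints at 150, 219 and 225. GRX2, the other dithiol glutaredoxin, had 58 at 186 (37.2%), where the P-site proline is followed by tyrosine and cysteine codons, as the window shows. These are the codons of the Cys-Pro-Tyr-Cys motif of glutaredoxins, whose cysteines carry the redox reaction. In the remaining lists, glycolysis and fermentation had a dominant position in 7 of 18 genes, cell wall and secreted proteins in 7 of 23, respiration and citric acid cycle in 7 of 15, sterol and fatty acid synthesis in 6 of 14, and transporters and proton pumps in 3 of 7. OLE1, the stearoyl-CoA desaturase, stood out in these with 88 of 233 footprints at 432 (37.8%).

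The genes with more than 1 dominant position came from all of these groups. FPR1, RPS4B and TRX2 had 4. The ribosomal protein genes RPL13A, RPL13B, RPL30, RPL32, RPL33A, RPL34B, RPL40B, RPS9B, RPS11B, RPS14A, RPS15 and RPS27B had 3, as did HHT1, HHT2, MBF1, RDL1, RPN12, SCS2, SNU13, VMA7, WWM1, HYR1, ATP15, CDC33 and TIF1. Those with 2 included the ribosomal protein genes RPL1B, RPL12A, RPL12B, RPL14A, RPL17A, RPL17B, RPL19B, RPL20A, RPL24B, RPL27A, RPL27B, RPL33B, RPL34A, RPL36A, RPL36B, RPL40A, RPL42B, RPL43B, RPP1A, RPS1B, RPS7B, RPS12, RPS14B, RPS16A, RPS18B, RPS19A, RPS19B, RPS24A, RPS26B, RPS30A and RPS31. In metabolism they were CDC19, GPM1, HOM6, ILV3, ILV5, ACB1, ERG11, OLE1, ACP1, ADE12, ADE13, ADK1, DPM1, LIP1, MMF1, PDB1, ATP3, SDH3, VMA4 and YDL086W. The rest were ANB1, HYP2, SUP45, TEF4, TIF34, CPR1, EGD1, HTB1, HTB2, CCW12, AHP1, GRX2, ARC15, DDR48, FIT3, GSP1, NCL1, PFY1, RGI1, RTC3, SML1, SNA3, TMA10, TMA19 and UBC4. In 77 cases 2 dominant positions were neighbouring codons, and 140 of the 374 positions had such a neighbour.

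The residues in the ribosome were compared with all codons of the same window of the same genes, which the rule did not use. A proline codon was in the P-site at 83 of the 374 dominant positions (22.2%, 95% Wilson interval 18.3 to 26.7%), against 4.43% of the window's codons. The other footprints of these genes had proline in the P-site in 9.65%. The share grew with the share of the gene's footprints at a position. These classes cover the window in all 483 genes with 100 or more footprints. Proline was in the P-site in 5.44% of listed positions with under 1% of their gene and 8.61% from 1 to 2%. It was in 10.5% from 2 to 5% and 13.9% from 5 to 10%. From 10 to 20% it was in 17.6%, and in 34.7% (26.1 to 44.3%) at 20% and more. Only these last classes, the dominant positions, require 20 or more footprints. The codons seen most were CCA at 56 positions, where window codons have it in 2.74%, and CCT at 24 (6.42% against 1.24%). Weighted by footprints, 36.6% had proline in the P-site, and CCW12 309, CDC19 306, GPM1 387 and FBA1 636 are all of this kind. The interval counts positions as separate, while neighbouring positions and duplicated genes are not. Among the 234 positions without a dominant neighbour the share was 20.1%.

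Proline was also frequent in the A-site, with 51 positions (13.6%) against 4.40% of window codons, and in the E-site, with 39 (10.4%) against 4.44%. The other footprints of these genes had proline in the A-site in 10.9% and in the E-site in 9.86%, so footprints at large largely shared this. In all, 145 positions (38.8%) had proline in at least 1 of the 3 sites, against 12.5% of window codons. Serine led the E-site with 68 positions (18.2%), against 7.16% of window codons and 10.2% of the other footprints. The pairs of E-site and P-site residues seen most were serine-proline and alanine-proline, at 14 positions each, against 0.273% and 0.373% of window codons. Of the 139 serine-proline pairs in the window, 10.1% were dominant positions, as at YPT7, ANB1, HYP2 and GPM1 in the windows above. Proline-proline was seen at 8 positions in 7 genes. At 5 of these all 3 sites held proline. They were in NPL3, an mRNA-binding protein, at 195 (91 of 275 footprints, 33.1%), in DHH1, an RNA helicase, at 1434 (22 footprints, 15.9%), and in WWM1, PDA1 and ERG11.

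Glycine and lysine were scarce. No dominant position had glycine in the A-site, which allows a share of up to 0.802%, against 6.90% of window codons and 2.18% of the other footprints of these genes. In the P-site, glycine was found at 5 positions (1.34% against 6.92%) and lysine at 8 (2.14% against 7.99%). The other footprints had glycine there in 4.10% and lysine in 5.98%. Lysine stood at 14.2% in the codon 5 before the A-site, which holds the first bases of the window, and at 1.87% in the next codon. The study names proline, glycine, asparagine, cysteine and lysine as P-site residues of pauses in disome-seq. Its scores are odds ratios against mRNA-seq at the leading ribosome of a collided pair. The shares below come from footprints of single ribosomes, so assay and measure both differ. The 5 residues together were found at 108 positions (28.9%, 24.5 to 33.7%), against 25.0% of window codons, with proline making up 83 of them. A run of 3 lysines or arginines in the 20 residues before the P-site, a charge that can slow the peptide in the exit tunnel, was present at 18 positions (4.81%, 3.07 to 7.48%) against 2.71%. In ribosomal protein genes it was 7.04% against 6.34%, and in the other genes 3.45% against 1.93%. Runs of 3 lysines were at 3 positions (0.802%) against 0.941%.

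**Figure D2:**
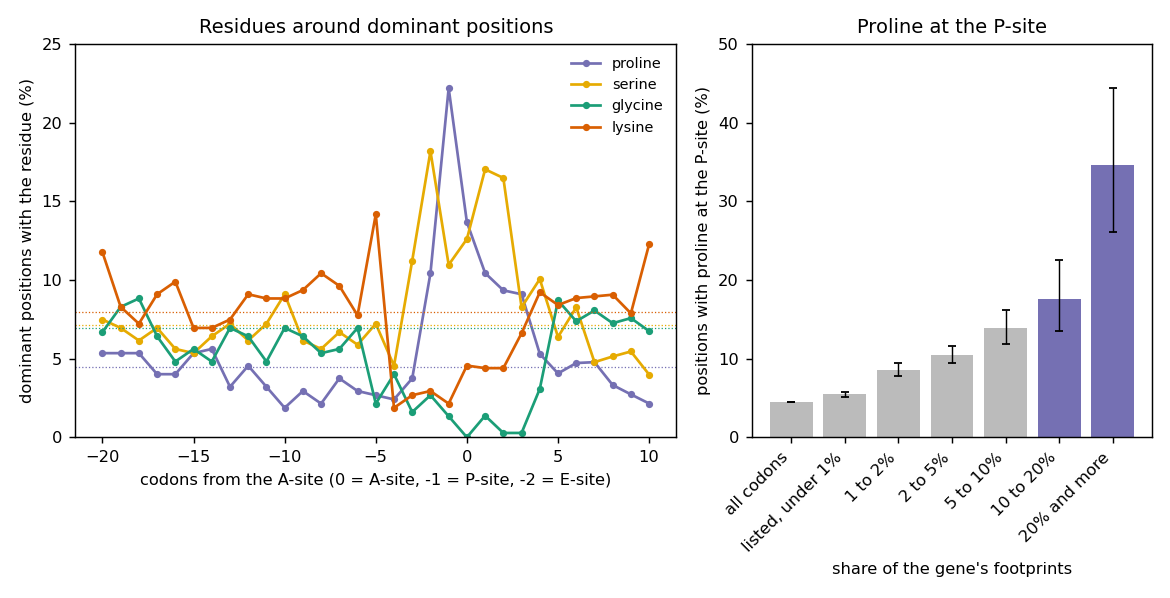
Left, percent of the dominant positions with a codon for proline, serine, glycine or lysine at each codon from 20 before to 10 after the A-site, with dotted lines for the mean over the window's codons. Right, percent of positions with proline in the P-site by their share of the gene's footprints, with 95% Wilson intervals and the dominant positions in purple. The right panel covers all 483 genes with 100 or more footprints. Proline peaks at the P-site with 22.2%, and its share reaches 34.7% at positions with 20% or more of a gene.

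Base composition moved with these residues. The 358 windows that lie inside a coding sequence had 31.2% C (SD over windows 6.41) and 14.1% G (SD 5.26), against 20.7% C and 22.6% G over all windows of these genes. The other footprints of these genes had 30.7% C and 16.7% G, so high C and low G were shared by footprints at large. At the ends of the window, A was the base at 51.9% of positions 14 nt before the A-site, against 34.3%, and G at 52.7% of those 12 nt before it, against 35.0%. Proline codons begin with CC, and glycine codons with GG. The part of base composition and of fragment ends in the residue shares was not tested. Reads with several alignments were discarded, so that a dominant position is mostly found where the window is unique, and 356 of the 358 windows occur once in the genome. DDR48 438 and RPL16A 210 are the exceptions. The window of RPL16A 210 is identical to that of RPL16B 207, and both list 65 footprints. Whether the same reads were counted on both genes was not tested. In 42 of the 238 genes under 80% of the 28-nt stretches are unique, among them TDH3 with 52.8% and ENO2 with 57.6%, and the discarding of reads can raise the shares of the unique positions left. In the genes with 80% or more, proline was in the P-site at 24.3% of 300 positions.

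The part beyond 75% of the coding length held 42.5% of the dominant positions against 30.9% of the window's codons. Codons of long genes weigh most in that background. With each dominant position set against the window of its own gene, the background was 37.3%, and the difference was not tested. The median position lay at 70.7% of the coding length. At 9 positions the A-site held the stop codon, 2.41% of dominant positions against 0.466% of window codons and 0.990% with each position set against its own gene. These were in ZEO1 (150 footprints, 16.4%), RPS25B (95, 30.2%), HOR7 (64 of 581 footprints), RPL40A (54, 26.9%), RPS24A (43, 18.8%), RPL24B (50, 11.2%), ARC1 (35, 14.2%), ERG13 (30, 22.9%) and RPL42A (26, 24.8%), a mixed set of ribosomal and other proteins. RPL24B had a further position just past its stop codon, at 468, with 61 footprints.

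Footprints fell off within a few codons on both sides. Aligned on the leading dominant position of each gene, the codon before it held on average 26.8% of its footprints and the codon after it 28.4%. At 30 nt before it the mean was 2.17%. A pair of touching ribosomes protects 1 longer fragment, outside the 28 to 29 nt counted here, so that a ribosome stacked behind the position cannot show in these counts.

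**Figure D3:**
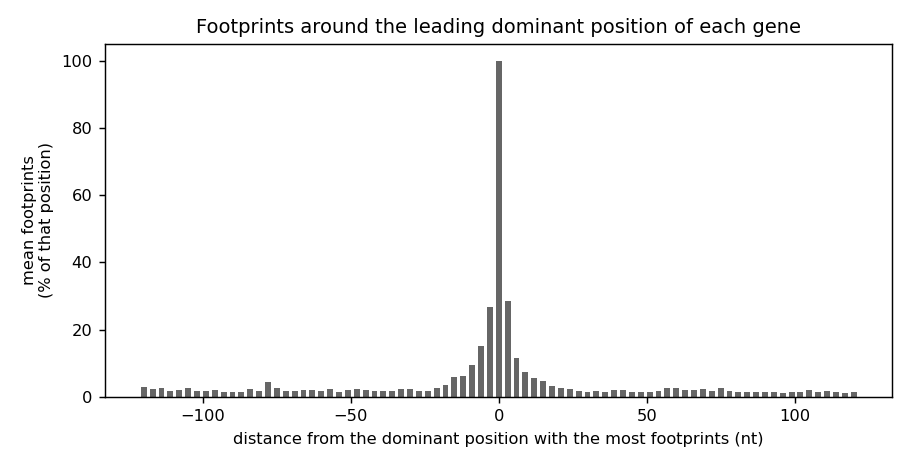
Mean footprints in the 2-ribosome library at each codon within 120 nt of the leading dominant position of the 238 genes, in percent of that position. The neighbouring codons reach 26.8% and 28.4%.

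Many yeast ribosomal protein genes exist as 2 copies with almost the same protein, which gives the same codon a second, separately counted measurement in the same library. Of the genes with 100 or more footprints, 54 pairs shared at least 80% of their protein. Both copies had a dominant position in 27 pairs, and in 19 pairs at the same aligned codon. Of 123 dominant positions with an aligned codon in the other copy, 58 were dominant there too, and 4 had no footprint there. Footprints of copies with the same window cannot be told apart, and 42 of the 119 windows compared differed by at most 1 base. Of the 77 positions whose windows differed by 2 or more bases, 36 (46.8%) were dominant in both copies, with a median share of 9.65% in the other copy. A codon dominant in both copies is counted from each copy, while one dominant in a single copy is mostly counted from that copy alone. The shares of positions dominant in both thus overstate how often the copies match. Both copies come from the same library, so that they share every step of its preparation.

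ANB1 and HYP2, whose windows differ at 2 bases, had 280 of 645 and 126 of 293 footprints at position 225, and 14.4% and 17.7% at 228. Their levels in the libraries differed, with 645 footprints on ANB1 in the 2-ribosome library against 33 and 31 in the monosome-seq libraries of the rich medium, and 293 on HYP2 against 2756 and 2254. ANB1 is the copy made when oxygen is short. RPS14B and RPS14A had 33.9% at 363 and 25.5% at 360, which are the same aligned codon although their windows differ at 4 bases. RPS9B and RPS9A both had it at 480, with 25.4% and 27.1%. The windows of these pairs, at chrX:74543-74570 (+), chrIII:177541-177568 (−), chrII:605386-605413 (+) and chrXVI:405916-405943 (+), are shown for comparison.
RPS14B 363: gaagacgttactCCAGTCccatcagact
RPS14A 360: gaagatgttaccCCAGTTccatctgact
RPS9B 480: attgacttcgctCCAACTtctccattcg
RPS9A 480: attgactttgctCCAACAtctccattcg
All 6 windows have proline in the P-site. Among the other pairs with at least 2 differing bases and the same dominant codon were RPL34B and RPL34A at 192 (25.5% and 19.2%), RPS16B and RPS16A at 333 (20.8% and 16.6%) and RPL12B and RPL12A at 219 (19.7% and 12.9%). Some copies did not match. RPL27B had 34.2% at 309 and RPL27A 8.03% there, RPS25B had 30.2% at its stop codon and RPS25A 0.262%, and TDH3 had 13.5% at 837, where TDH1 had 1.60% and TDH2 4.54%.

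**Figure D4:**
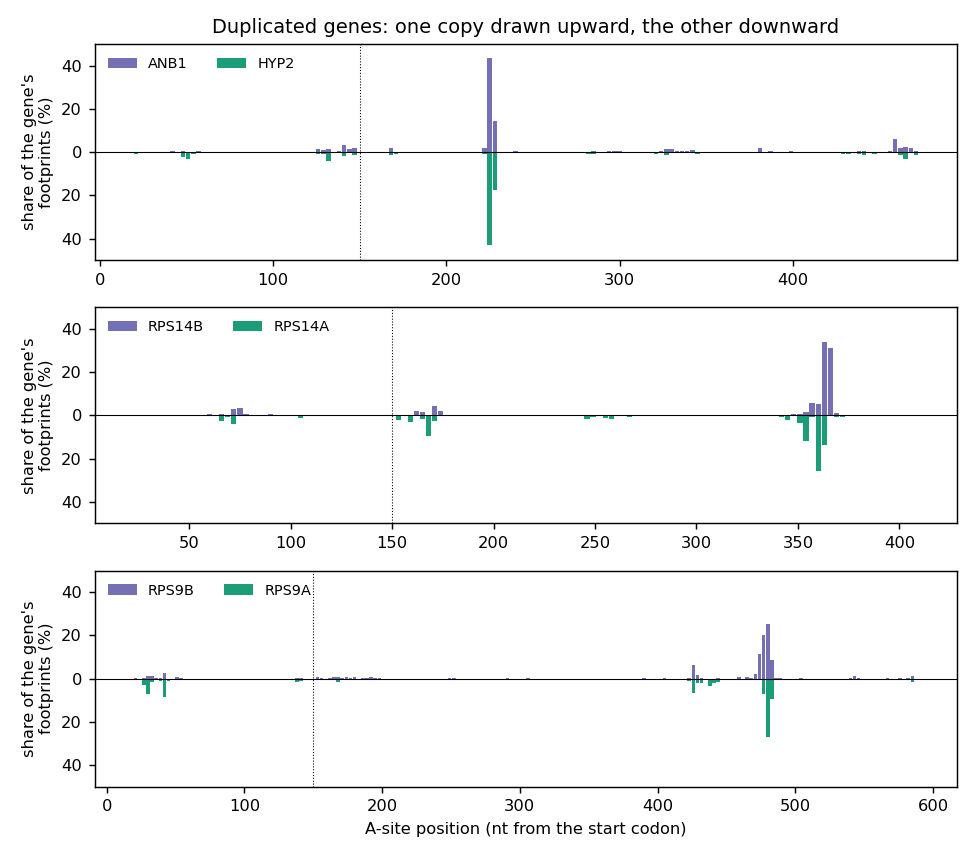
Share of each gene's footprints in the 2-ribosome library along the A-site position in nt from the start codon, for 3 pairs of duplicated genes, with ANB1, RPS14B and RPS9B drawn upward and HYP2, RPS14A and RPS9A downward. The dotted line is the start of the window at 150 nt. ANB1 and HYP2 mirror each other at 225 with 43.4% and 43.0%.

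The genes were next followed in libraries that the rule did not use, first in disome-seq over monosome-seq of the rich medium, which asks whether a gene took a larger share of the disome footprints than of the monosome footprints. These tables hold 1 total for each gene, and where on the gene a disome lay is not in them. With edgeR's quasi-likelihood test at a Benjamini-Hochberg adjusted p under 0.05, 18.5% of all 3089 genes tested changed, 9.03% higher and 9.42% lower in disome-seq. Of the 234 tested genes with a dominant position, 75 were higher (32.1%) and 39 lower (16.7%). Of the 236 tested genes with 100 or more footprints and no dominant position, 52 were higher (22.0%) and 43 lower (18.2%). Both sets are highly expressed, with median log2 CPM (scaled counts per 1000000) of 9.27 and 9.14 against 6.40 over all genes, and calls are easier there. The median log2 fold change was 0.25 in genes with a dominant position, −0.05 in those without and −0.37 over all genes. The split of 75 higher and 39 lower became 58 and 50 without the filter on low counts. With monosome-seq replicate 1 or 2 left out, only 918 or 927 of the 3089 genes remained after the filter. Counts from these fits cover fewer genes. The higher genes were 49 without disome-seq replicate 1 and 33 without either monosome-seq replicate. Without monosome-seq replicate 1 or 2 the lower genes were 20 and 19.

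ILV6, the regulatory subunit of acetolactate synthase, rose most. It had 14469 and 2862 CPM in disome-seq, against 255 and 241 CPM in monosome-seq, a log2 fold change of 5.14 (SE 0.23, adjusted p from edgeR 9.6e-100), with 612 and 93 raw counts in the 2 disome-seq replicates that differ by more than their depth. RPS14A had 14327 and 12401 CPM in disome-seq, against 708 and 729 CPM in monosome-seq (log2 fold change 4.22, SE 0.24), and RPS23B had 6100 and 10955 CPM against 602 and 555 CPM (3.87, SE 0.22). Of their 28-nt stretches 76.7% and 63.5% are unique, and both have a near-identical copy. Disome-seq lay above monosome-seq in both replicates of all 3. SHP1, a cofactor of the segregase Cdc48, fell most, with 1 disome footprint in each replicate against 185 and 162 monosome footprints (log2 fold change −3.06, SE 0.73). RPL37A had 426 and 646 CPM in disome-seq, against 4032 and 3905 CPM in monosome-seq (−2.92, SE 0.27), and SBP1, an RNA-binding protein, had 520 and 246 CPM against 2202 and 2025 CPM (−2.41, SE 0.27). The call of SHP1 was lost without either monosome-seq replicate, at adjusted p of 0.081 and 0.14 from edgeR.

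The genes with the largest piles did not share a direction here. TMA19 fell, with 3073 and 2092 CPM in disome-seq against 8655 and 7982 CPM in monosome-seq (log2 fold change −1.68, SE 0.23), as did RPL31A (−2.35, SE 0.26) and HYP2 (−0.80, SE 0.22), whose call was lost without either monosome-seq replicate. MBF1 had a log2 fold change of 0.82 (SE 0.22) and was called higher, a call that any 1 library left out removed. YPT7 (−0.89, SE 0.60), GRX1 (1.07, SE 0.53), ANB1 (1.53, SE 0.66), HNT1 (0.36, SE 0.39), UBC4 (−0.19, SE 0.33) and ARC15 (−0.70, SE 0.89) did not pass the test. Of the glycolytic enzymes, FBA1 and GPM1 were lower (−0.70, SE 0.22 and −0.66, SE 0.22), calls that were also lost without either monosome-seq replicate, while TDH3, ENO2, PGK1 and CDC19 lay between 0.23 and 0.50 and did not pass. CCW12 had −0.50 (SE 0.21) and did not pass either. By list, 36 of 83 ribosomal protein genes with a dominant position were higher and 18 lower (median log2 fold change 0.41), 4 of 5 histone genes were higher (1.29), and of 7 glycolytic genes 3 were lower. Disome fragments are longer than monosome fragments, and reads with several alignments were discarded. How far this moved the values of duplicated genes was not tested.

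In 3-AT, 31.6% of the 2275 genes tested changed between disome-seq and monosome-seq, 11.4% higher and 20.2% lower in disome-seq. Of the 215 tested genes with a dominant position, 27 were higher (12.6%) and 81 lower (37.7%), while of the 228 genes with 100 or more footprints and no dominant position, 28 were higher (12.3%) and 75 lower (32.9%). The median log2 fold change was −0.90, −0.72 and −0.39 over all genes. Of the 81 lower genes, 40 encode ribosomal proteins, of which 74 were tested and 3 were higher. With monosome-seq replicate 1 or 2 left out, only 641 or 650 of the 2275 genes remained after the filter on low counts. The lower genes were 51 and 46 without disome-seq replicate 1 or 2, and 37 and 39 without monosome-seq replicate 1 or 2. The higher genes were 16 without disome-seq replicate 1, and 14 and 15 without monosome-seq replicate 1 or 2.

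CPR1, the cyclophilin with 2 dominant positions, rose most in 3-AT. It had 19672 and 13348 CPM in disome-seq, against 2138 and 2309 CPM in monosome-seq (log2 fold change 2.89, SE 0.24, adjusted p from edgeR 3.2e-09). ACP1, the mitochondrial acyl carrier protein, had 972 and 1080 CPM against 170 and 124 CPM (2.78, SE 0.37), and SNU13, an RNA-binding protein of the spliceosome, had 1574 and 589 CPM against 166 and 168 CPM (2.70, SE 0.39). GAS1, a glucanosyltransferase of the cell wall, had 0 disome footprints in both replicates against 326 and 226 monosome footprints. With 3 counts per library as the floor, it was at least 8.12-fold lower. RPL37A (0 and 0 against 256 and 197, at least 6.68-fold) and VMA4, a subunit of the vacuolar proton pump (0 and 0 against 130 and 123, at least 3.75-fold), were the next of 15 genes with a dominant position and no disome footprint here. All 15 are among the 81 lower genes, although the bounds of RPL38 (0.995) and SNA3 (0.846) do not reach 1 and those of RPP1A, RPP2B, RPP2A and RPL13A lie at 1.01 to 1.14. With these 15 at their bound, the median log2 fold change was −0.79. Genes without a disome footprint were not counted over all genes tested, so the 15 are not shown to be particular to this set.

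Monosome-seq over mRNA-seq of the rich medium gives the single ribosomes per transcript. Of 5099 genes tested, 51.7% changed, 25.9% higher and 25.8% lower in monosome-seq. Of the 237 tested genes with a dominant position, 155 were higher (65.4%) and 33 lower (13.9%), and of the 243 genes with 100 or more footprints and none, 191 were higher (78.6%) and 8 lower (3.29%). The median log2 fold changes were 0.48, 0.72 and −0.06 over all genes. Of the 33 lower genes, 21 encode ribosomal proteins, of which 43 of 83 were higher. DESeq2 called 20 of the genes with a dominant position lower. DHH1 rose most, with 293 and 307 CPM in monosome-seq against 62.1 and 52.3 CPM in mRNA-seq (log2 fold change 2.40, SE 0.13). SCW4, a cell wall glucanase-like protein (2.14, SE 0.09), and VMA2, a subunit of the vacuolar proton pump (2.03, SE 0.08), followed. RGI1, a protein of energy metabolism, fell most, with 8 and 2 monosome footprints against 65 and 77 mRNA reads (−1.39, SE 0.42), followed by RPS30A (−1.24, SE 0.12) and RPL1B (−1.18, SE 0.12), of whose 28-nt stretches 71.5% and 11.3% are unique.

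**Figure D5:**
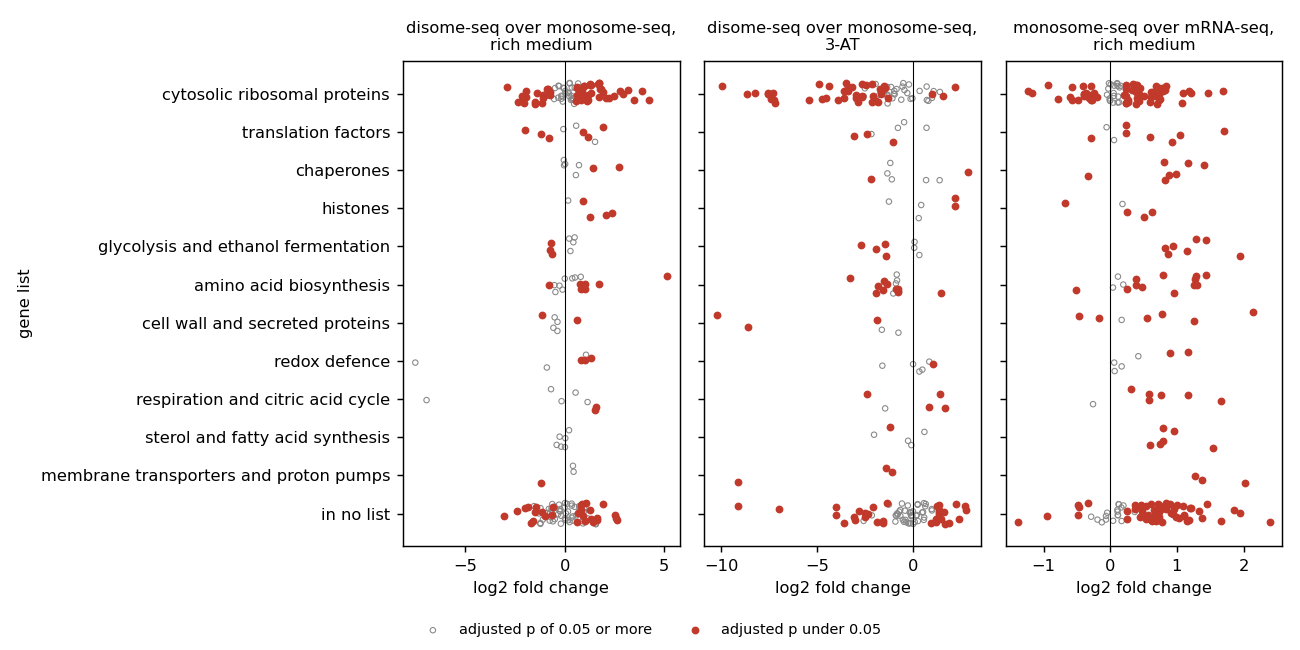
Log2 fold change of each gene with a dominant position in 3 comparisons, by list of function. Red points passed edgeR's test at an adjusted p under 0.05 and open points did not. Points below −6 have no disome footprint in either replicate, and their fitted value depends on the prior count. In 3-AT, 40 of 74 ribosomal protein genes were lower in disome-seq.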

How the data were processed

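The deposited files hold counts of footprints or reads, which the authors made by trimming with cutadapt 1.16, removing rRNA reads with Bowtie 1.2.2 and aligning to the coding sequences of yeast build R64 with TopHat2 2.1.1, discarding reads with several alignments or low mapping quality. The methods state that reads alike in length, sequence and random 3-nt tag were counted a single time. A tag of this length has 64 values, which with 2 lengths and 3 first bases allows 384 distinct reads at an A-site position, and 64 positions of the 2-ribosome table hold more, so its counts may include duplicates. The 2-ribosome table gives counts per A-site position. The others give totals per gene for 1 length class of fragments, which is not the whole depth of a library. The mRNA table of 3-AT was not used here.

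Dominant positions were found by the limits given at the start of the report, counting from 0 at the first base of the start codon. The members and the gene lists were chosen with earlier results of these data known. Codons, windows and unique 28-nt stretches came from the RefSeq sequence of build R64 (Python 3.11.15). A residue is the one its codon encodes. Shares at a position have exact intervals and shares over positions Wilson intervals, both at 95% and for counting error only.

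Groups followed the labels. Gene totals were compared with edgeR 4.0.16 in R 4.3.3 (TMM scaling, default filter on low counts, quasi-likelihood test, Benjamini-Hochberg adjustment, threshold 0.05), with 1 spread for both assays of a comparison although disome-seq replicates varied more. P-values measure the spread between 2 libraries a group. DESeq2 1.42.0, its size factors, no filter, the replicate number as a block and leaving out each library were tried as alternatives. The scripts were tested on simulated data. Named genes are the 10 positions with the most footprints and the 10 with the largest shares, those nearest to the limit of 10%, every gene with 2 or more dominant positions (1 item is not reported here), examples of each list in order of footprints, and, for every comparison, the 3 called genes without overlap that rose most and the 3 that fell most. MET17, the 9 genes with a stop codon in the A-site, the genes with proline in all 3 sites and the duplicated genes whose shares differ were named after their values were seen.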

Additional observations from a re-analysis of the deposited data

Results flagged for a closer look

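Of 214 genes with a dominant position tested in both media, 66 had log2 fold changes of opposite sign in disome-seq over monosome-seq with no overlap between the libraries of either medium, 53 of them higher in the rich medium and lower in 3-AT and 13 the reverse, and 20 of the 66 passed edgeR's test in both media. The same count was not made over all genes, so the 66 are not shown to be particular to genes with a dominant position. The difference between the media was not tested. Medium differs along with 3-AT, and so does strain by its label. Among the named genes, each pair of values is the log2 fold change in 3-AT and then in the rich medium. UBC4 had 1.38 and −0.19, SNU13 2.70 and −1.10, and ARC15, with 2 and 1 disome footprints in the rich medium, 2.40 and −0.70. ILV6 had −0.88 and 5.14, PGK1 −1.40 and 0.44, RPS14A −2.65 and 4.22, SCW4 −1.62 and 0.63, and MBF1 −4.03 and 0.82. In 3-AT the disome-seq replicates held 1 and 1 footprints of MBF1 and 2 and 0 of RPS14A. They held 2 and 0 of SCW4 and 5 and 4 of ILV6, so the sizes of these 3-AT values rest on few counts. RPS14A and MBF1 passed the test in both media, UBC4, SNU13, ARC15 and PGK1 in 3-AT alone, and ILV6 and SCW4 in the rich medium alone.

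Positions outside the window are not used in the report. In the 2-ribosome library, 98 positions in 71 genes met every limit but the window, all of them before position 150, and STM1 114 held 238 of 1566 footprints. With the A-site before the start codon 199 footprints were counted, and 1058 past the stop codon, with no control library to set them against.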

How the results depend on the processing

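The number of dominant positions follows its limits, with 191 at a minimum of 50 footprints, 101 at 20% of the gene and 121 at a gene total of 500. The 5 residues together made up 40.2% of positions weighted by footprints and 39.6% at 20% of the gene. Proline in the P-site, for which the alternatives were chosen after seeing the data, made up 36.6% and 34.7%. DESeq2 called fewer genes, 374 in the rich medium, 423 in 3-AT and 1532 in monosome-seq over mRNA-seq, with 20 genes with a dominant position lower in the last. Leaving out 1 library gave 153 to 383 calls in the rich medium (33 to 64 genes with a dominant position higher, 19 to 39 lower), 223 to 383 in 3-AT (14 to 22 higher, 37 to 51 lower) and 1930 to 2362 in monosome-seq over mRNA-seq (138 to 151 higher, 25 to 30 lower). Without a monosome-seq replicate, 918 or 927 genes remained in the rich medium and 641 or 650 in 3-AT. Log2 fold changes of the rich medium moved by a median of −0.21 without the filter and −0.26 without disome-seq replicate 1. Whether the median of genes with a dominant position (0.25) kept its sign was not checked. Direction was checked for the genes named by footprints, share or fold change, and no call among them changed direction. For the named genes, 28 calls were lost and 9 gained over all settings in the rich medium, 9 and 1 in 3-AT, and 14 were lost in monosome-seq over mRNA-seq.

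With the replicate number as a block, 403 genes were called in the rich medium, 520 in 3-AT and 2577 in monosome-seq over mRNA-seq. Same-numbered samples did not deviate together (correlations of 0.013, −0.016 and 0.034), so the samples share only a number. The 2-ribosome library has no replicate, and a position with 20 footprints is only known within a wide interval.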
